A study of Rattus norvegicus with 3 samples.

Results

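Monoamine transmitters are made, packed, recaptured and broken down by a small set of dedicated proteins, and the genes of 10 of them were followed in the rat vestibular nuclei after loss of the balance organ on 1 side. The genes were Th, Tph2, Ddc and Dbh (synthesis), Slc18a2 (vesicle loading), Slc6a2, Slc6a3 and Slc6a4 (reuptake), and Maoa and Maob (breakdown). They were taken as a fixed list, and every array probe carrying a RefSeq accession of a listed gene was used. This gave 11 probes for 9 of the 10 genes, out of 41012 probes and 8899 named genes on the array. No probe was matched to Maoa, the oxidase that prefers serotonin and noradrenaline, so it was not analysed here.

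The series holds 3 groups of adult male Sprague-Dawley rats (body weight 200 to 250 g), with 1 Agilent 1-colour array per group. The control is labelled as sham-operated, although the protocol text speaks of normal rats, and which side was dissected in controls is not stated. The other groups had the left labyrinth removed, and the vestibular nuclei of the operated side were taken 1 or 7 days later. Each array stands for tissue of 3 rats, whose nuclei singly gave too little RNA, so the RNA appears to have been pooled and carries no measure of the spread between animals.

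Dopamine, noradrenaline and serotonin are made by few neurons whose fibres reach much of the brain. In the hindbrain, noradrenaline comes chiefly from the locus coeruleus and neighbouring cell groups, and serotonin from the raphe nuclei. Both send fibres to the vestibular nuclei, where these amines alter the firing of vestibular neurons. The transmitter RNAs are made in the cell bodies, so in a dissected nucleus they report mainly the cell bodies that the tissue block holds.

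At day 1, 3 of the 8 genes that could be measured differed from sham by at least 2-fold, as did 12.6% of all named genes measured. At day 7 none of the 8 did, against 16.9% of all named genes. Th, the enzyme that commits tyrosine to catecholamine synthesis, was 2.91-fold higher at day 1 and close to sham at day 7. Maob, a mitochondrial amine oxidase found in astrocytes and serotonergic neurons, was 2.94-fold higher at day 1. Tph2, the enzyme that commits tryptophan to serotonin synthesis in neurons, was 4.24-fold lower at day 1 and 1.84-fold higher at day 7. These are differences between single arrays, and no test of the conditions was possible.

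The 250 bases before the RefSeq start site (GRCr8) are shown for the 3 genes past 2-fold and for Slc18a2, whose window held the same long motif as that of Th. Capitals mark matches on either strand to the cAMP response element TGACGTCA, to its core TGACG, which lies inside the full element, or to the AP-1 motif TGANTCA. They are given 5′ to 3′ in the direction of the gene. The windows are chr1:207508219-207508468 (minus strand) for Th, chr7:52675640-52675889 (minus strand) for Tph2, chrX:8490155-8490404 (plus strand) for Maob and chr1:268399771-268400020 (plus strand) for Slc18a2.
Th: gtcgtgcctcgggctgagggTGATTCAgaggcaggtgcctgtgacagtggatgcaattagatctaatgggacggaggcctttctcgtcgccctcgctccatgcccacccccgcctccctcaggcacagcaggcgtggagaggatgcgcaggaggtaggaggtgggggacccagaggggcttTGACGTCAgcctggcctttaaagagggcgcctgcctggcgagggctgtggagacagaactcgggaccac
Tph2: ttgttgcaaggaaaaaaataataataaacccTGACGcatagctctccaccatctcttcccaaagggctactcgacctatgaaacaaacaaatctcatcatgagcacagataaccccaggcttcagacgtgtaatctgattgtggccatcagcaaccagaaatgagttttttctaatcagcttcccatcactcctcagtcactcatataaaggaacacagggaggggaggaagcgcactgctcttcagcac
Maob: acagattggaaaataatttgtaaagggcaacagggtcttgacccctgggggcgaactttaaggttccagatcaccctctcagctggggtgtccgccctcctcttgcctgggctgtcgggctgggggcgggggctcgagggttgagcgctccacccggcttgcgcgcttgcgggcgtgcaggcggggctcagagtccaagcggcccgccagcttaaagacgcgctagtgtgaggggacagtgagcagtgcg
Slc18a2: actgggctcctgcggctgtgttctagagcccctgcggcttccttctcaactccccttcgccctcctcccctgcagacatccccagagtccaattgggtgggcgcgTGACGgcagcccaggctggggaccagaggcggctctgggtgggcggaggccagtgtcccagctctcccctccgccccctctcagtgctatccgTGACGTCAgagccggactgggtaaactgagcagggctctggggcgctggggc

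The full element TGACGTCA stood at bases 69 to 62 before the start of Th and at bases 52 to 45 before that of Slc18a2. It was present in 1.59% of 33469 such windows in the RefSeq table. The AP-1 motif, at bases 230 to 224 before the start of Th, was present in 6.34% of the windows, and the 5-base core in 18.2%. Of the 8 genes with a window, 2 held the AP-1 motif, Th and Ddc (bases 163 to 157 before the start in 1 of its windows), and 4 held the core, Th, Slc18a2, Tph2 and Dbh. Tph2 held a single core match, at bases 219 to 215, Dbh held 2, at bases 234 to 230 and 174 to 170, and Maob held no match to any of the 3 motifs. The table held windows for 8 of the 10 genes, and Slc6a2 and Slc6a4 were without one. A gene was counted if any of its windows had a match, whereas the percentages are per window, so they are unlike measures. A match describes the letters of the window only.

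Signals were compared on a log2 scale on which 0 is the 75th percentile of the scanner's processed intensities on that array, or 5692 (sham), 5242 (day 1) and 5676 (day 7) intensity units. A difference of 1 on this scale is 2-fold. Spots well above background made up 81.3%, 77.3% and 76.9% of the spots in that order, and the lowest such signal was 66.9, 109.0 and 122 units, so the floor for dim probes was higher in both operated groups. The errors given with folds combine the scanner software's own error for the spots on both arrays. They leave out animals, dissection and labelling. Transporters of the main vestibular neuron types were read on each array, although they cannot tell these nuclei from other hindbrain tissue. Slc17a6 (glutamate) gave 45845, 42951 and 51832 units and Slc32a1 (GABA and glycine) 60647, 59369 and 59792 units in sham, day 1 and day 7. The Slc32a1 signals lay near that of Gja1, a saturated probe (61890 units in sham), so their likeness says little about change. The hindbrain gene Hoxa2 was well above background in sham and at day 1 but not at day 7, where it was at least 69.3-fold lower than in sham, and Slc6a5, the glycine transporter of glycinergic neurons, gave 7763, 6596 and 202 units. Esrrg, another vestibular and hindbrain marker, gave 1613, 573 and 26.4 units and was not well above background at day 7. Of 8 such markers measured at day 7, 2 were at least 2-fold higher than in sham and 3 lower. The day 7 array thus stood apart from the others in several markers, and the part of this in the monoamine values was not tested. Fewer cells of a type and less RNA per cell cannot be told apart in such tissue.

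Th and Dbh, the catecholamine enzymes, were both higher at day 1 than in sham and both lower at day 7 than at day 1. Th encodes tyrosine hydroxylase. Its probe lay on 10 spots per array, 1 of which was an outlier at day 1 and was left out. The spots ranged over 625 to 984 units in sham (median 720), 1873 to 2154 units at day 1 (median 1994) and 545 to 719 units at day 7 (median 631). The day 1 spots were all above every spot of the other arrays, while the day 7 and sham spots overlapped. The log2 fold of Th over sham was 1.54 ± 0.21 at day 1 and -0.23 ± 0.22 at day 7, and that of day 7 over day 1 was -1.77 ± 0.21. The log2 SD over its spots was 0.18 (sham), 0.06 (day 1) and 0.13 (day 7), which is error within an array only. Within the ranking of all probes on its array, the Th probe stood at percentile 46.8 (sham), 61.4 (day 1) and 43.0 (day 7). Among 200 probes on 10 spots that were measured at day 1 and in sham, 6 including Th were as high or higher, and 15.0% of them differed by at least 2-fold in either direction.

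**Figure D1:**
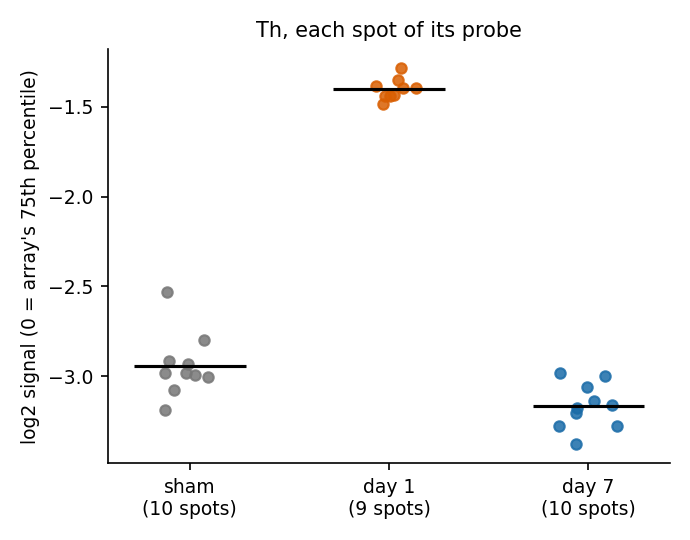
Each point is 1 spot of the Th probe, as log2 signal with 0 at the array's 75th percentile, and each line is the mean of the spots on that array. The 9 spots at day 1 lie between -1.48 and -1.28, above all 10 spots in sham and all 10 at day 7.

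Dbh encodes the enzyme that turns dopamine into noradrenaline inside vesicles, and it marks noradrenergic neurons. Its single spot gave 202, 285 and 140 units in sham, day 1 and day 7. All of them were above the well-above-background limit, and the day 7 value was near it. The log2 fold over sham was 0.62 ± 0.26 at day 1 and -0.52 ± 0.34 at day 7, neither of them 2-fold. Day 7 over day 1 was -1.14 ± 0.35, or 2.21-fold lower, and -0.77 with normexp on the median signals followed by quantile normalization, which changes the signal, its background correction and the scaling together. Slc6a2, the noradrenaline reuptake transporter, gave 1146, 1717 and 1916 units in sham, day 1 and day 7, which is 0.70 ± 0.21 at day 1 and 0.75 ± 0.21 at day 7 against sham. Its day 7 signal was level with that of day 1 (0.04 ± 0.21), whereas Th and Dbh were lower at day 7 than at day 1.

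Slc6a3, the dopamine reuptake transporter that marks midbrain dopamine neurons, was not well above background on any array. Its spot gave 17.5, 26 and 71.2 units in sham, day 1 and day 7, so no fold is given. Dbh and Slc6a2, which mark noradrenergic neurons, were well above background on all 3 arrays.

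Markers of the locus coeruleus were set beside these values, because the nucleus lies near the vestibular nuclei. Of 8 measured genes on that list at day 1 against sham, 2 were at least 2-fold higher, Calcrl (1.54) and Cartpt (1.14), 1 was lower, Calcr (-1.33), and 5 were neither. At day 7 Gal (2.06) and Calcr (1.55) were past 2-fold upward and Cartpt (-1.05) downward. The list's summed levels, over every gene with a probe whether measured or not, were 7.88 (sham), 9.71 (day 1) and 9.38 (day 7), in multiples of the 75th percentile. Ret was the largest part of each sum, at 28026, 33382 and 26166 units, and its other probes were not well above background on any array. The sums thus say little about dimmer markers such as Phox2a (454, 296 and 323 units). Phox2a, a transcription factor needed for noradrenergic identity, was at -0.50 at day 1 and -0.49 at day 7 against sham, and Gch1, which makes the cofactor of the hydroxylases, was not well above background on any array. The part of the tissue block in the Th difference was not tested.

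Tph2 and Slc6a4, the serotonergic genes, had unlike values. Tph2 encodes neuronal tryptophan hydroxylase and marks raphe neurons. Its spot gave 2682 units in sham, 582 at day 1 and 4915 at day 7, well above the background limit each time. The local background around the spot was 46, 44 and 46 units. The log2 fold of Tph2 over sham was -2.08 ± 0.21 at day 1 and 0.88 ± 0.20 at day 7, and that of day 7 over day 1 was 2.96 ± 0.21, or 7.80-fold. Its percentile among all probes was 65.0 (sham), 43.2 (day 1) and 73.1 (day 7). The probe lay on 1 spot and was the gene's only probe, so no second reading within an array was available.

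Slc6a4, the serotonin reuptake transporter, had 2 probes. The brighter gave 830, 1355 and 1594 units in sham, day 1 and day 7, with differences of 0.83 ± 0.21 at day 1 and 0.94 ± 0.21 at day 7 against sham. The dimmer gave 277, 213 and 256 units, with differences of -0.26 ± 0.27 and -0.11 ± 0.26. At day 1 the brighter probe was thus above sham while the dimmer lay within its scanner error of sham. Neither probe showed the low value that Tph2 had. A gap between probes as large as the 1.08 log2 units seen here was found for 13.6% of 1139 genes with 2 measured probes at day 1, where the median gap was 0.34.

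Of 6 measured genes on a list of raphe markers, none was past 2-fold at day 1, against 12.6% of all genes measured. They ran from -0.54 (Trh) to 0.45 (Slc17a8), with 3 above sham. The list's summed levels were 7.42 (sham), 7.92 (day 1) and 10.4 (day 7). Tac1 made up most of each sum, at 32959, 33132 and 46770 units. The sums thus say little about dimmer markers such as Fev (280, 197 and 235 units). At day 7 Gata3 was the 1 gene of 5 past 2-fold, against 16.9% of all genes. Trh, a peptide of some raphe neurons, was not well above background at day 7 and at least 5.89-fold lower than in sham. Fev, the transcription factor of serotonergic identity, was at -0.39 at day 1 and -0.25 at day 7 against sham. Gata3, also used by these neurons, was at -0.24 at day 1 and 1.07 at day 7. Htr1a, the serotonin autoreceptor, was not well above background on any array. The part of raphe tissue in the Tph2 difference was not tested.

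Ddc and Slc18a2 serve dopamine, noradrenaline and serotonin neurons alike. Ddc, the decarboxylase that finishes dopamine and serotonin, gave 7642, 7654 and 11737 units in sham, day 1 and day 7. It was at 0.12 ± 0.20 at day 1 and 0.62 ± 0.20 at day 7 against sham, so its signal was higher at day 7 without reaching 2-fold. As high at day 7 were 22.2% of all genes, and 8.28% of genes of like level. Slc18a2, which loads monoamines into vesicles, had 2 probes. The brighter gave 25446, 20520 and 23295 units, and its differences from sham were -0.19 ± 0.20 at day 1 and -0.12 ± 0.20 at day 7. The dimmer gave 949, 349 and 890 units, so it was 2.50-fold lower at day 1 (-1.32 ± 0.23) and level with sham at day 7 (-0.09 ± 0.21). The probes lay 1.13 log2 units apart at day 1, a gap that 12.8% of the 1139 genes matched or passed, and 0.03 apart at day 7. Which transcripts each probe detects could not be worked out here.

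Maob gave 510, 1379 and 947 units in sham, day 1 and day 7. Its log2 fold over sham was 1.55 ± 0.21 at day 1 and 0.90 ± 0.21 at day 7, and that of day 7 over day 1 was -0.66 ± 0.21. Its percentile was 41.5 (sham), 56.0 (day 1) and 49.1 (day 7). Both arrays after surgery were thus above sham, with day 7 between the other arrays. Astrocytes, which carry much of the Maob protein in brain, were followed by 10 measured markers. At day 1 S100b (3.19) was the 1 gene past 2-fold, and the list's median was -0.04. At day 7 S100b (1.89) and Aqp4 (1.25) were higher, and the median was -0.14. The summed astrocyte levels were 30.5 (sham), 31.6 (day 1) and 29.5 (day 7). They include Gja1 (61890, 63347 and 61625 units), which saturation left out of the measured genes, so a large part of each sum says little about change. The part of astrocytes in the Maob difference was not tested.

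**Figure D2:**
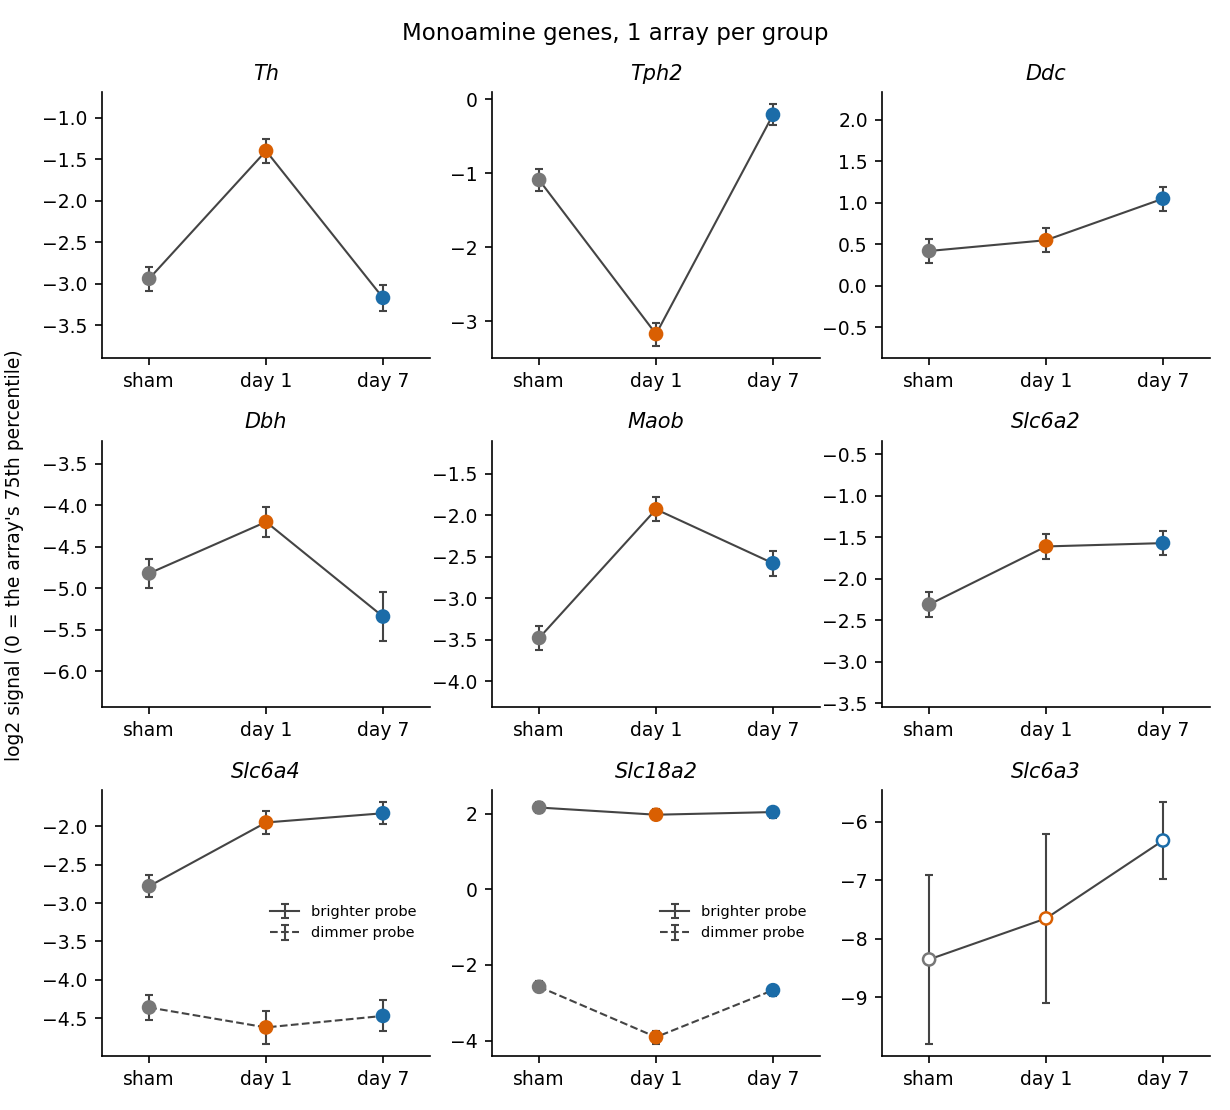
The plot of the genes by array gives log2 signal with 0 at the array's 75th percentile, for sham, day 1 and day 7, with bars for the scanner's own error. Open points were not well above background, panels have their own scales, and Slc6a4 and Slc18a2 have 2 probes each. Th and Maob are highest at day 1 and Tph2 is lowest there.

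Across the list at day 1 against sham, 2 of 8 measured genes were at least 2-fold higher (Th and Maob), 1 was lower (Tph2) and 5 were neither. Over all 6292 genes measured in that comparison, 8.26% were at least 2-fold higher, 4.37% at least 2-fold lower and 12.6% past 2-fold either way. With 8 genes, these counts allow no statement that the list differed from other genes. The median of the 8 was 0.66, against 0.00 over all genes, and 6 were above 0 and 2 below. Tph2 was the farthest out, with 33 of 6292 genes, or 0.524%, as low or lower, itself included. Among 1799 genes of like level the share was 0.611%. As high as Maob were 178 genes (2.83%) and as high as Th 183 (2.91%).

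At day 7 against sham none of the 8 was past 2-fold, while 11.1% of 6261 genes were at least 2-fold higher, 5.73% at least 2-fold lower and 16.9% past 2-fold either way. The median was 0.68, against 0.05 over all genes, with 5 genes above 0 and 3 below. The highest were Slc6a4 by its brighter probe (0.94), Maob (0.90) and Tph2 (0.88). At least as high as Slc6a4 were 12.2% of all genes, so these values were not rare on this array.

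At day 7 against day 1, 1 of the 8 was at least 2-fold higher (Tph2, 2.96) and 2 were lower (Th, -1.77, and Dbh, -1.14). Over 6142 genes 6.56% were at least 2-fold higher, 5.32% at least 2-fold lower and 11.9% past 2-fold either way. In all, 19 genes, 0.309%, were as high as Tph2 or higher in this comparison, Tph2 included. The 3 comparisons share arrays in pairs, so they are not independent readings.

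**Figure D3:**
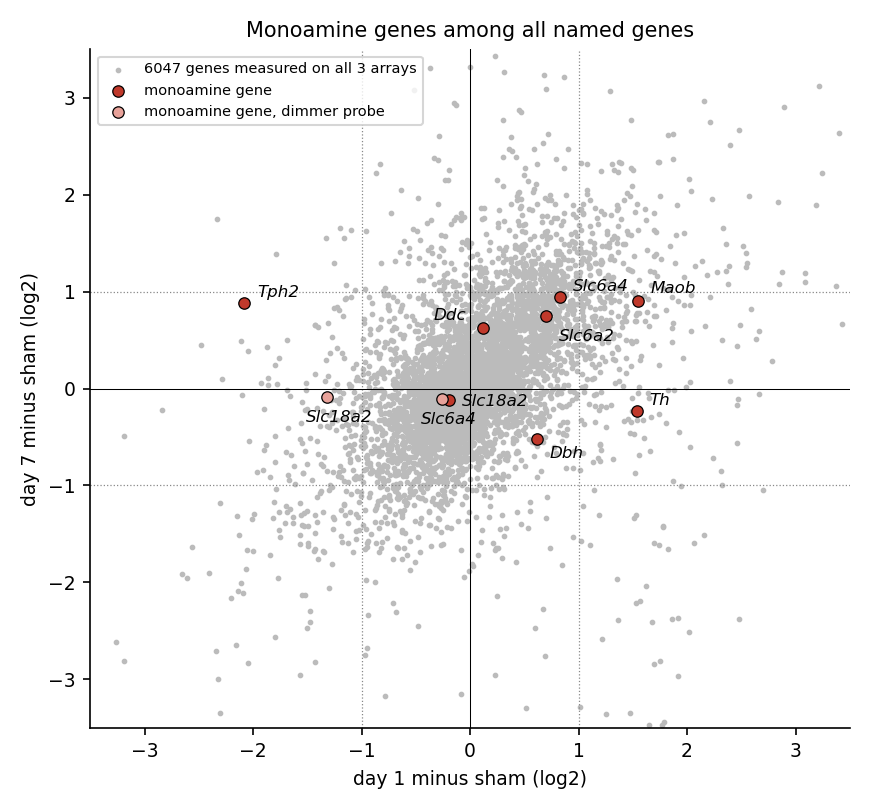
Each grey point is 1 of 6047 genes measured on all 3 arrays, placed by its log2 difference at day 1 and at day 7 against sham, and 32 genes lie outside the axes. Red points are the monoamine genes by their brighter probe and pale points the dimmer probes. Both axes share the sham array, so the slope of the cloud is no result. Tph2 and Th lie apart from the others, on opposite sides of the vertical axis.

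The genes nearest to those past 2-fold were sought among genes of like mean level, by the distance over both differences from sham on the log2 scale. For Th, among 1793 genes, they were Calcrl (distance 0.10) and Grk4 (0.14). For Tph2, among 1792 genes, they were Akt2 (0.39) and Cspg5 (0.48), which were at -2.11 and -2.05 at day 1 and at 0.49 and 0.39 at day 7. For Maob, among 1788 genes, they were Cyp17a1 (0.01) and Chit1 (0.07). The match rests on 3 arrays, so it says only that these genes have like values here.

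The lists of genes around monoamine handling are read against the 12.6% of all genes past 2-fold at day 1 and the 16.9% at day 7. With so few genes per list, the counts allow no statement that a list differed from other genes. Of 13 measured cofactor and amine-metabolism genes at day 1, 3 were past 2-fold, and the median log2 fold was 0.13. The higher ones were Asmt (1.22) and Aanat (1.14), which make melatonin from serotonin. Asmt was dim, at 106 units in sham and 228 at day 1 on 1 spot. The lowest well-above-background signals there were 66.9 and 109 units. Pts (-1.27), which makes the hydroxylase cofactor tetrahydrobiopterin, was lower. At day 7 none of the 13 was past 2-fold, and the median was -0.24.

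Other carriers of amines or their precursors included both directions. At day 1, 1 of 6 measured was higher, the vesicular carrier Slc18a1 (1.05), and 1 lower, Slc3a2 (-2.14), with a median of 0.36. At day 7 the median of 7 measured was 0.97, and 3 of them were past 2-fold upward and 1 downward. The organic cation carrier Slc22a3 (1.76), which takes up amines at low affinity, and the amino acid carrier Slc7a5 (1.38) were among the higher, while Slc3a2 (-2.09), the partner chain of Slc7a5, was lower. Slc3a2 was thus near -2 on both days, and Slc7a5 was at 0.53 at day 1.

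Transcription factors of monoamine neurons showed none of 8 past 2-fold at day 1, with a median of -0.16. At day 7, 1 of 9 was higher, Gata3 (1.07), and 2 were lower, among them Nr4a2 (-1.38), needed for dopamine neurons, with a median of 0.03. Receptors for catecholamines showed 1 of 8 higher at day 1, Drd3 (2.78), a dopamine receptor, and 1 of 7 higher at day 7, Adra2c (1.35), an inhibitory noradrenaline receptor. Adra2a, an autoreceptor of noradrenaline neurons, was at 0.64 at day 1 and 0.40 at day 7. Of the 14 receptor genes, 10 were well above background in sham, 8 at day 1 and 7 at day 7.

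**Figure D4:**
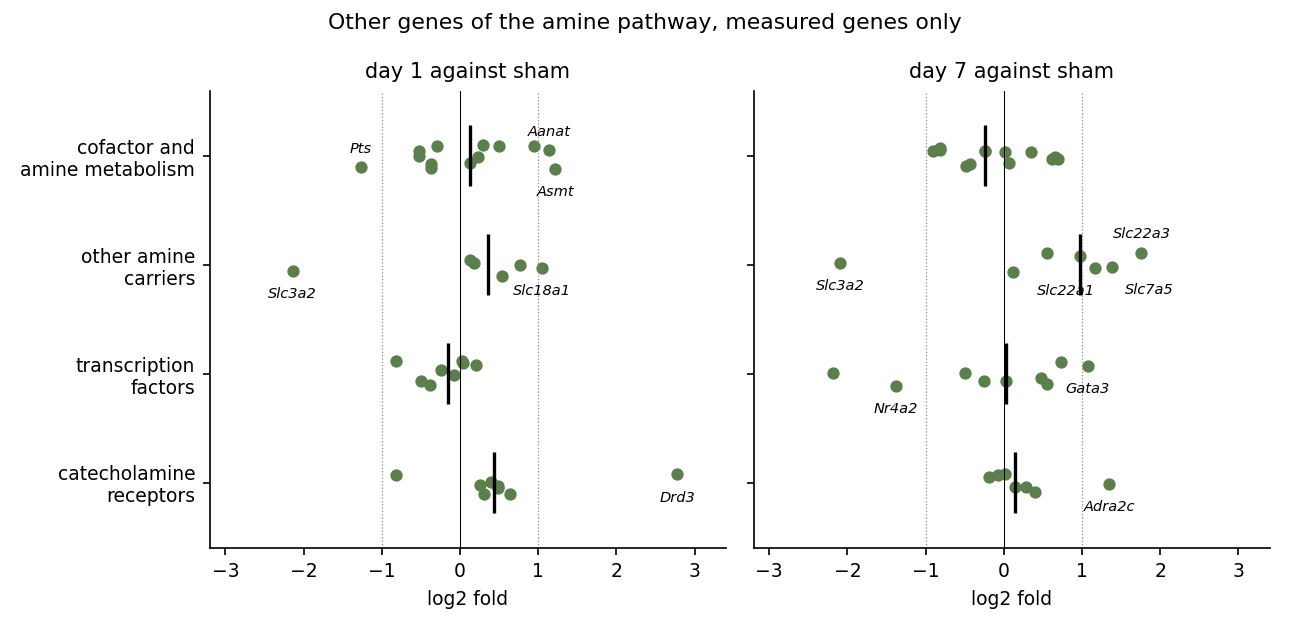
Each point is 1 measured gene of 4 lists around monoamine handling, by its log2 fold at day 1 (left) and day 7 (right) against sham, with a black line at each list's median and names for the genes past 2-fold that are reported by name. Most genes lie within 2-fold, with Drd3 (2.78) and Slc3a2 (-2.14) farthest from 0 at day 1, and Slc3a2 at -2.09 at day 7.

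Markers of other tissue near the nuclei are read against the 12.6% of all genes past 2-fold at day 1 and the 16.9% at day 7. Of 4 measured choroid plexus and ependyma markers, 3 were at least 2-fold higher at day 7 than in sham, Sostdc1 (1.86), Foxj1 (1.77) and Folr1 (1.72), and their list's summed levels were 0.964 (sham), 0.827 (day 1) and 2.13 (day 7). At day 1, 1 of 5 was higher, Kcnj13 (1.55), which was dim in sham (101 units), and 1 lower, Ttr (-1.20). Vestibular and hindbrain markers had 1 of 9 higher and 1 lower at day 1, Gad2 (1.16) and Esrrg (-1.38). At day 7 they had 2 of 8 higher and 3 lower, Gad1 (3.39) and Slc6a5 (-5.26) among them. Other probes of Gad1 were at 1.59 and, not well above background at day 7, at -0.14. Hoxa2 and Esrrg were not well above background at day 7 and are outside that count. Esrrg was at least 13.2-fold lower there than in sham. General neuron markers had 3 of 12 lower at day 7 and none higher, the neurofilaments Nefh (-2.30), Nefl (-1.61) and Nefm (-1.17). Their summed levels were 71.4, 70.6 and 59.7 in sham, day 1 and day 7. These sums include Eno2 and Syp, which saturation left unmeasured against sham. At day 1 none of the 12 was past 2-fold. Of 10 vascular and pericyte markers none was past 2-fold at day 1, nor of 9 at day 7. Blood and mast cell markers had 2 of 7 higher at day 1, Tpsb2 (2.08) and Alas2 (1.02), and 1 of 6 at day 7, Alas2 (1.29). Tpsb2, a mast cell protease, was not well above background at day 7 and was at least 8.25-fold lower there than in sham. Kit, on the same list, went the other way and was at least 2.76-fold higher at day 7 than in sham. Saturation left Tpsab1 unmeasured, and Fcer1a was not well above background on any array, so Tpsb2 does not stand for mast cells. Cerebellum markers had 1 of 6 higher at day 1, Zic1 (1.16), and 1 of 5 at day 7, Barhl1 (1.12). Zic1 was not well above background at day 7 and was at least 6.61-fold lower there than in sham. The part of such tissue in the monoamine values was not tested.

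**Figure D5:**
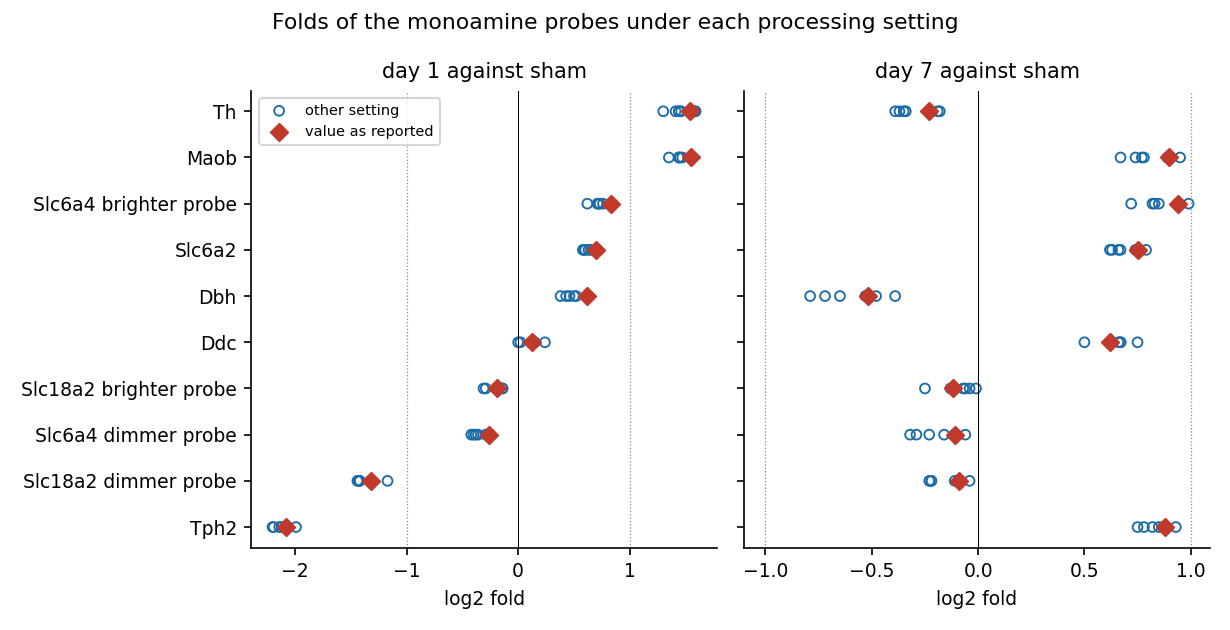
Each row is a monoamine probe, with the log2 fold as reported (red diamond) and under 8 other settings (blue circles), at day 1 (left) and day 7 (right) against sham. Axes differ between the panels. Th, Maob, Tph2 and the dimmer Slc18a2 probe stay past 2-fold at day 1 in every setting shown, and no probe passes 2-fold at day 7.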

How the data were processed

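RNA of the vestibular nuclei was measured on 3 Agilent 1-colour (Cy3) arrays, 1 per group, from 1 µg total RNA per the labels. Per the file headers, Agilent Feature Extraction 10.7.3.1 made the deposited intensity values (processed signal, background-subtracted by the scanner, linear and not scaled between arrays), and other deposited columns are flags per spot. The deposited series table holds 34687 probes, with intensity values equal within 0.1 percent to the processed signal for 99.7% to 99.8% of probes. All 3 arrays lay on 1 slide, and position on it cannot be told apart from group.

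From these, each array's intensities were put on a log2 scale with its 75th percentile at 0, outlier spots were dropped, and repeat spots were averaged per probe. Probes were named by RefSeq accession (GRCr8 table, names only), which named 10768 of 41012 probes. A gene took its probe with the highest mean and counted as measured where both arrays had it well above background and neither saturated; otherwise a bound was given. Genes past 2-fold were counted, with no test. Tools were Python 3.11.15, pandas 2.3.3, numpy 2.4.6, matplotlib 3.10.9, R 4.3.3 and limma 3.58.1 (alternatives only), and the counting was tested on simulated data. Named were all 10 genes, up to 3 genes past 2-fold per list and day, and the 2 nearest genes of each member past 2-fold. The genes and lists were chosen with earlier results of these data known. Some genes of the lists are counted but not reported by name here. The alternatives were other scalings, background corrections, spot summaries and filters.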

Additional observations from a re-analysis of the deposited data

Results flagged for a closer look

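Some genes lay on opposite sides of sham on the 2 days and differed by at least 2-fold between them. With 1 array per group the difference between the days was not tested. Among the monoamine genes these were Tph2 (2.96 log2 at day 7 against day 1), Th (-1.77) and Dbh (-1.14). For Th the day 7 value against sham was -0.23 ± 0.22, about its scanner error. Among the other genes named, they were Calcr (2.88), Foxj1 (1.84) and Gata3 (1.31), higher at day 7 than at day 1, and Cartpt (-2.19) and Calcrl (-1.86), lower at day 7 than at day 1. Calcr had a second probe that was not well above background on any array.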

How the results depend on the processing

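No paired analysis was possible because each group had 1 array, and no replicate could be left out. Of 240 single-probe values under 8 alternatives, 236 moved by less than the scanner error, 4 by more and none of those past 2-fold changed sign. All 4 came from normexp on the median signals with quantile normalization, added after seeing the data because the files hold no mean signal column, so the planned normexp setting was not run. They were Th at day 1 (1.30), and at day 7 Maob (0.67), the brighter Slc6a4 probe (0.72) and, against day 1, Dbh (-0.77). Th, Maob and Tph2 were past 2-fold at day 1 under all 8. Against a count of 3 monoamine genes past 2-fold at day 1, the filter to brighter probes left 1 (3 genes measured), and at day 7 against day 1 it left 1 in place of 3. With no filter on dim probes the count at day 7 against sham was 1 (Slc6a3) in place of 0. Genes past 2-fold in the 4 pathway lists numbered 6 at day 1, 8 at day 7 and 8 between the days. With no filter they were 12 and 14 at day 1 and day 7 against sham, with brighter probes 3, 4 and 3 in the same order, with the positive-and-significant flag 10 at day 1, and with normexp 5 between the days. Leaving out the scaling put the all-gene median at -0.12 (day 1 over sham) and 0.15 (day 7 over day 1). Dim probes, such as Dbh at day 7, were measured less well after surgery.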
